A study of Mus musculus with 16 samples.

Results

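The 31 genes described here encode proteins of fatty acid uptake, activation and oxidation and of its control, most of them mitochondrial, and their levels were compared between lactating and nulliparous hearts, with and without the natriuretic peptide receptor gene Npr1. The genes were chosen by symbol. A probe belonged to a gene if its RefSeq accession mapped to that symbol, and the brightest probe stood for the gene. All 31 genes were found among the 21154 genes named on the array, and all 31 were well above background on 16 of 16 arrays. By step they comprised 5 genes of uptake and activation, 5 of the carnitine shuttle, 2 of malonyl-CoA control, 4 acyl-CoA dehydrogenases, 7 of the later steps of the spiral, 3 for unsaturated fatty acids, 2 thioesterases and 3 of electron transfer.

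Total RNA came from ventricles of female mice, and each of 16 one-colour Agilent arrays held the RNA of 1 mouse. The groups were lactating Npr1-/- mice, lactating Npr1+/+ mice, nulliparous Npr1-/- mice and nulliparous Npr1+/+ mice, with 4 mice each. The lactating mice were 2 weeks into lactation. Npr1 encodes the guanylyl cyclase receptor for atrial and B-type natriuretic peptides, and the series title places the study in cardiac enlargement during lactation. Age and strain are not given in the sources used here. The knockout label names no promoter or cell type that would limit the loss to the heart.

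The adult heart draws much of its energy from fatty acids. They are released from lipoproteins, carried across the membrane, bound in the cytosol and activated to acyl-CoA, then passed into the mitochondrion as carnitine esters. There the beta-oxidation spiral removes acetyl units through dehydrogenase, hydratase, dehydrogenase and thiolase reactions, and electrons from the first of these reach ubiquinone through the electron transfer flavoprotein. Malonyl-CoA, an inhibitor of carnitine palmitoyltransferase 1, sets how much acyl-CoA enters.

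Levels are given as log2 signal relative to the array's 75th percentile, so that 0 is the 75th percentile of all probes, and differences are in log2 units ± SE from the limma fit over all 16 arrays. A gene is called where its p, adjusted by Benjamini-Hochberg over the 14063 genes tested, is under 0.05, and n = 4 mice in each group throughout. The 75th percentile itself was 278 to 347 signal units on lactating arrays and 165 to 221 on nulliparous arrays, except for nulliparous knockout replicate 4, at 284. That array also stood apart on the first principal component (53.6% of the variance), at 14.54. The lactating arrays lay between 27.64 and 41.93 there and the other nulliparous arrays between -46.91 and -39.33. Its label was kept, and counts without it are given beside those with it. The Npr1 probe was well above background on 9 of 16 arrays, with overlapping levels in both genotypes, so it does not check the genotype labels. Each group had 2 arrays on each of 2 slides, and a slide was scanned in 1 session. Each group also held the same positions on both slides, so position and group cannot be told apart.

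Genes moved in both directions with lactation. In knockout hearts 2 of 31 rose and 12 fell, while 17 were not called. Over all genes tested 44.1% were called in knockout hearts, 25.5% higher and 18.6% lower, against 6.45% and 38.7% of the members. In wild-type hearts 9 of 31 rose and 8 fell. There 50.3% of all genes were called, 31.8% higher and 18.5% lower, so the members' shares of 29.0% and 25.8% are near the background. The median difference of the members was -0.12 in knockout hearts, where that of all genes was 0.06, and 0.16 in wild-type hearts, where that of all genes was 0.10. The members are bright: 22 of the 31 lie in the brightest 10% of genes tested. In that 10% of genes 19.3% rose and 26.2% fell in knockout hearts, against 34.3% and 17.7% in wild-type hearts.

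Falls were shared between genotypes for 8 genes: Slc27a1, Slc22a5, Cpt2, Acacb, Acadvl, Hadh, Decr1 and Etfb. They make up 8 of 12 knockout falls and 8 of 8 wild-type falls. For Cpt2, Decr1 and Etfb the fall holds for the brightest probe, and another probe had the opposite sign in both genotypes. No share of all genes called in both genotypes stands beside these overlaps, so they are not read as particular to the members. The other 4 knockout falls were Fabp3, Cpt1b, Mlycd and Acaa2. Both genes that rose in knockout hearts, Slc25a20 and Echs1, also rose in wild-type hearts, where they are 2 of 9 with Acsl1, Acads, Hadhb, Hsd17b10, Eci2, Acot13 and Etfdh. No gene was called in opposite directions. The 10 called in neither genotype were Lpl, Cpt1a, Crat, Acadl, Acadm, Hadha, Ehhadh, Eci1, Acot2 and Etfa. Without nulliparous knockout replicate 4, 6 genes rose in knockout hearts (Hsd17b10, Echs1, Etfdh, Acads, Slc25a20 and Crat) and the same 12 fell. In that fit 30.6% of all genes were called higher and 22.7% lower in knockout hearts. When nulliparous knockout replicate 1, 2 or 3 was left out, no member was called higher in knockout hearts, against 2776, 2794 and 3015 of all genes. No member was called higher either when lactating knockout replicate 3 was left out, against 3112 of all genes. Leaving out lactating knockout replicate 2 kept Slc25a20 alone. Median centring of the arrays moved the median of all genes to 0.24 in knockout and 0.28 in wild-type hearts. Under it 6 members rose and 7 fell in knockout hearts, and 14 rose and 2 fell in wild-type hearts. Of the 14063 genes tested, 5306 rose and 1395 fell under it in knockout hearts, and 6054 rose and 1488 fell in wild-type hearts. Relative to the median of all genes, the members' median was -0.18 in knockout and 0.06 in wild-type hearts under either scaling. It was -0.11 and 0.10 with quantile normalization and -0.03 and 0.18 with normexp background correction.

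**Figure D1:**
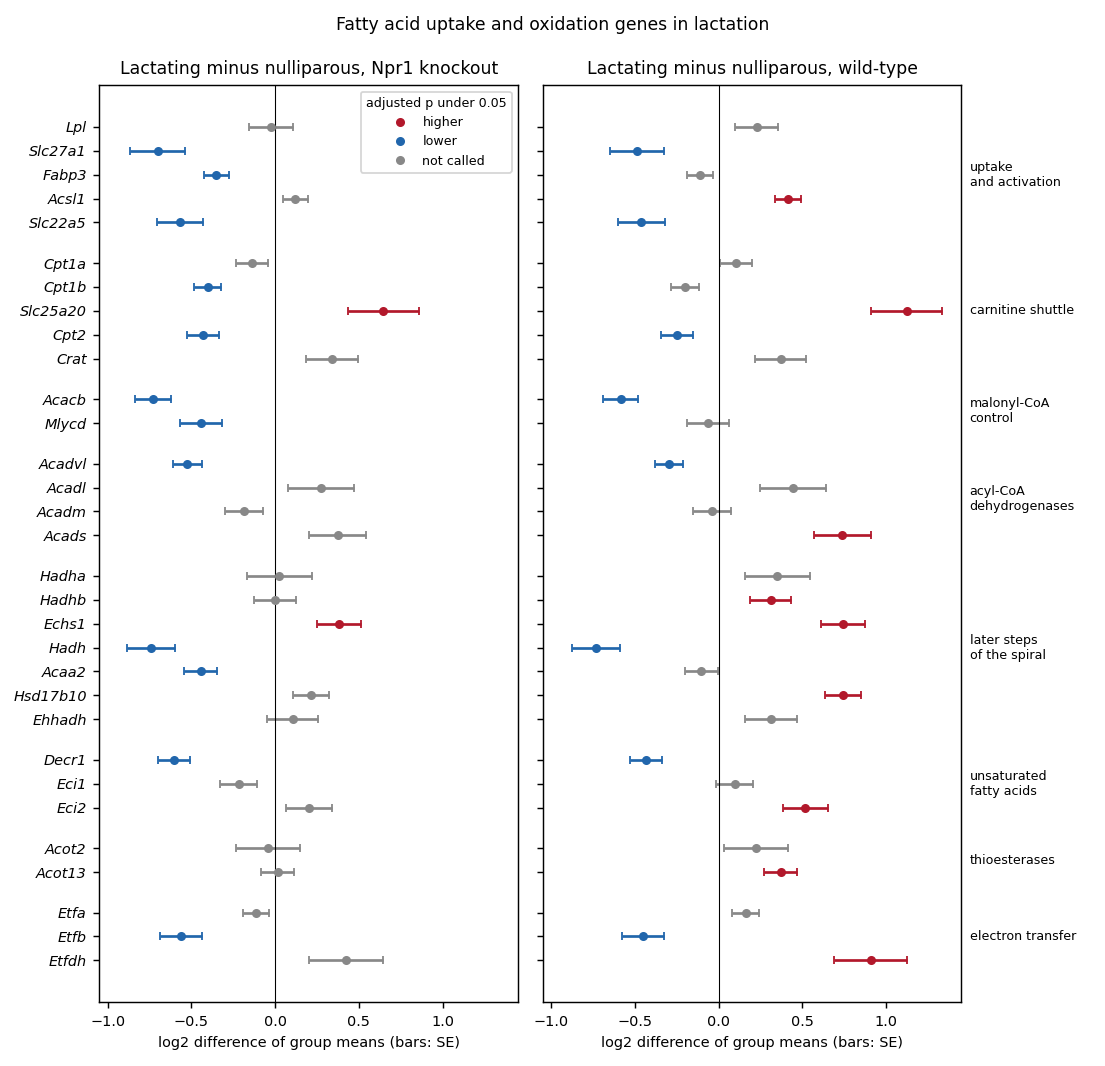
Log2 difference between lactating and nulliparous hearts for the 31 genes, ordered by step, in knockout and wild-type mice; points are limma estimates and bars are SE, in red where called higher, blue where called lower and grey where not called. In knockout hearts 2 points are red and 12 blue, and in wild-type hearts 9 are red and 8 blue.

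Among the genes of uptake and activation, Acsl1 rose in wild-type hearts, Slc27a1 and Slc22a5 fell in both genotypes, Fabp3 fell in knockout hearts, and Lpl was not called. Acsl1 encodes the long-chain acyl-CoA synthetase that activates fatty acids at the mitochondrial surface. It measured 7.21, 7.04, 7.21 and 7.14 on lactating knockout arrays, against 7.05, 7.05, 6.87 and 7.15 on nulliparous knockout arrays. In wild-type hearts it measured 7.32, 7.30, 7.14 and 7.18 on lactating wild-type arrays, against 6.87, 6.82, 6.77 and 6.83 on nulliparous wild-type arrays. The knockout groups overlapped and the wild-type groups did not. The difference was 0.12 ± 0.08, adjusted p = 0.213, in knockout hearts and 0.41 ± 0.08, adjusted p = 0.000643, in wild-type hearts. The knockout difference passed the test with normexp background correction (0.27, adjusted p = 0.0184), quantile normalization (0.20, adjusted p = 0.0474) and median centring (0.30, adjusted p = 0.024).

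Fabp3, the cytosolic fatty acid binding protein of heart and skeletal muscle, measured 9.66, 9.56, 9.59 and 9.66 on lactating knockout arrays, against 10.05, 9.97, 10.09 and 9.75 on nulliparous knockout arrays. The wild-type values were 9.85, 9.83, 9.83 and 9.86 on lactating wild-type arrays, against 10.04, 9.93, 9.95 and 9.90 on nulliparous wild-type arrays. All lactating arrays lay below all nulliparous arrays of the same genotype. The knockout difference was called (-0.35 ± 0.08, adjusted p = 0.00275), and the wild-type difference was -0.11 ± 0.08, adjusted p = 0.238. Quantile normalization turned the sign of the knockout difference, to 0.11 with adjusted p = 0.302, and median centring left it at -0.17 with adjusted p = 0.122. The second Fabp3 probe, at a mean level of 9.69 against 9.84, measured -0.51 in knockout and -0.29 in wild-type hearts.

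Slc27a1, a fatty acid transport protein of the plasma membrane, measured 2.53, 2.59, 2.63 and 2.33 on lactating knockout arrays, against 3.40, 3.27, 3.33 and 2.88 on nulliparous knockout arrays, with no overlap. In wild-type hearts the values were 3.01, 2.34, 2.56 and 2.43 on lactating wild-type arrays, against 3.03, 2.85, 3.45 and 2.95 on nulliparous wild-type arrays, and lactating replicate 1 lay among the nulliparous arrays. It fell by 0.70 ± 0.16 (adjusted p = 0.00389) in knockout and by 0.49 ± 0.16 (adjusted p = 0.0222) in wild-type hearts. The wild-type call ended under median centring (-0.31, adjusted p = 0.16). It also ended on leaving out 1 wild-type array: lactating replicate 2 (-0.41, adjusted p = 0.0697), lactating replicate 4 (-0.43, adjusted p = 0.0602) or nulliparous replicate 3 (-0.36, adjusted p = 0.0738). Slc22a5, the carnitine transporter of the plasma membrane, fell by 0.57 ± 0.14 (adjusted p = 0.00512) and 0.46 ± 0.14 (adjusted p = 0.013) in knockout and wild-type hearts. The wild-type call ended under median centring (-0.28, adjusted p = 0.132).

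Lpl encodes lipoprotein lipase, which frees fatty acids from lipoproteins at the capillary wall and is made by cardiomyocytes and adipocytes. Its level averaged 8.95 ± 0.16 on lactating knockout, 9.30 ± 0.08 on lactating wild-type, 8.97 ± 0.30 on nulliparous knockout and 9.07 ± 0.10 on nulliparous wild-type arrays (SD, n = 4 each). The lactation difference was -0.03 ± 0.13, adjusted p = 0.89, in knockout and 0.23 ± 0.13, adjusted p = 0.156, in wild-type hearts. Of 6 adipocyte markers 5 passed the filter, and Lep was above background on 0 arrays. Their summed signal, relative to the 75th percentile, was 0.318 to 0.532 in lactating knockout, 4.07 to 10.4 in lactating wild-type, 0.795 to 1.72 in nulliparous knockout and 3.26 to 5.54 in nulliparous wild-type hearts. The sum weighs the brightest marker most. By sign, 4 of the 5 markers were higher and 1 lower in lactating than in nulliparous wild-type hearts, and in knockout hearts 0 were higher and 5 lower. The part of the adipocyte signal in the Lpl values was not tested. In bulk tissue fewer cells of a type and less RNA per cell cannot be told apart.

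In the carnitine shuttle the translocase gene rose and Cpt2 fell in both genotypes, Cpt1b fell in knockout hearts, and Cpt1a and Crat were not called. Slc25a20 encodes carnitine-acylcarnitine translocase, which exchanges acylcarnitine for carnitine across the inner membrane. It measured 2.63, 2.58, 2.74 and 2.61 on lactating knockout arrays, against 1.90, 1.96, 1.31 and 2.79 on nulliparous knockout arrays, where replicate 4 exceeded every lactating array. In wild-type hearts it measured 2.97, 2.65, 2.82 and 2.67 on lactating wild-type arrays, against 1.76, 1.72, 1.64 and 1.49 on nulliparous wild-type arrays, and no value overlapped. It rose by 0.65 ± 0.21 (adjusted p = 0.024) in knockout and by 1.12 ± 0.21 (adjusted p = 0.00076) in wild-type hearts. On the brightest probes, the wild-type change was the largest rise among the 31 genes. Dimmer probes of Cpt2 (2.76) and Etfa (1.82) rose more in wild-type hearts.

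Cpt1b, the muscle form of carnitine palmitoyltransferase 1 at the outer membrane, measured 5.74, 5.64, 5.79 and 5.74 on lactating knockout arrays, against 6.22, 6.14, 6.24 and 5.93 on nulliparous knockout arrays. Wild-type values were 5.81, 5.73, 5.82 and 5.70 on lactating wild-type arrays, against 6.11, 5.89, 5.94 and 5.92 on nulliparous wild-type arrays. Neither genotype overlapped. It fell by 0.40 ± 0.08 (adjusted p = 0.00198) in knockout hearts, and its wild-type difference of -0.20 ± 0.08, adjusted p = 0.0537, was not called. Median centring ended the knockout call at adjusted p = 0.0743, and the wild-type difference passed the test with quantile normalization (-0.33, adjusted p = 0.00324). Its second probe measured -1.06 in knockout and -0.92 in wild-type hearts.

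Cpt1a, the form that predominates in liver, measured 1.82, 1.69, 1.91 and 1.77 on lactating knockout arrays, against 2.14, 1.92, 1.77 and 1.93 on nulliparous knockout arrays. Wild-type values were 2.00, 1.98, 1.76 and 1.79 on lactating wild-type arrays, against 1.82, 1.71, 1.95 and 1.63 on nulliparous wild-type arrays. Both genotypes overlapped and neither difference was called (-0.14 ± 0.10, adjusted p = 0.263, in knockout and 0.10 ± 0.10, adjusted p = 0.398, in wild-type hearts). Cpt2, which rebuilds acyl-CoA on the matrix side, measured 6.12, 5.69, 5.99 and 6.02 on lactating knockout arrays, against 6.40, 6.51, 6.34 and 6.28 on nulliparous knockout arrays. Wild-type values were 6.06, 6.03, 5.84 and 5.96 on lactating wild-type arrays, against 6.34, 6.21, 6.21 and 6.13 on nulliparous wild-type arrays, again with no overlap. It fell by 0.43 ± 0.10 (adjusted p = 0.00313) in knockout and by 0.25 ± 0.10 (adjusted p = 0.0431) in wild-type hearts, on the brighter of 2 probes. The wild-type call was borderline and held in 7 of the 16 fits that left out 1 array, with adjusted p up to 0.123, and median centring ended it in both genotypes (-0.25, adjusted p = 0.0786, in knockout and -0.07, adjusted p = 0.639, in wild-type hearts). The dimmer probe had the opposite sign, as described with the other probe pairs. Crat, carnitine acetyltransferase, gave 0.34 ± 0.15, adjusted p = 0.0842, in knockout hearts and 0.37 ± 0.15, adjusted p = 0.0561, in wild-type hearts. Without nulliparous knockout replicate 4 its knockout difference was 0.46 (adjusted p = 0.0174).

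Of the pair that sets malonyl-CoA, Acacb fell in both genotypes and Mlycd in knockout hearts. Acacb, the mitochondrial acetyl-CoA carboxylase that makes malonyl-CoA, measured 6.09, 5.97, 5.94 and 5.93 on lactating knockout arrays, against 6.89, 6.85, 6.75 and 6.36 on nulliparous knockout arrays. Wild-type values were 6.14, 5.99, 5.83 and 5.95 on lactating wild-type arrays, against 6.57, 6.56, 6.63 and 6.50 on nulliparous wild-type arrays. No lactating array reached a nulliparous array in either genotype. Acacb fell by 0.73 ± 0.11 (adjusted p = 0.000537) in knockout and by 0.59 ± 0.11 (adjusted p = 0.000564) in wild-type hearts. These calls held under every alternative tried except slide 2 alone. Mlycd, the decarboxylase that removes malonyl-CoA, measured 5.87, 5.77, 5.69 and 5.62 on lactating knockout arrays, against 6.43, 6.39, 6.04 and 5.88 on nulliparous knockout arrays. Its wild-type values were 5.96, 5.90, 5.84 and 5.64 on lactating wild-type arrays, against 5.88, 5.80, 6.12 and 5.81 on nulliparous wild-type arrays and overlapped. It fell by 0.44 ± 0.13 (adjusted p = 0.0114) in knockout hearts, a call that median centring ended at adjusted p = 0.129, and gave -0.06 ± 0.13, adjusted p = 0.697, in wild-type hearts.

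**Figure D2:**
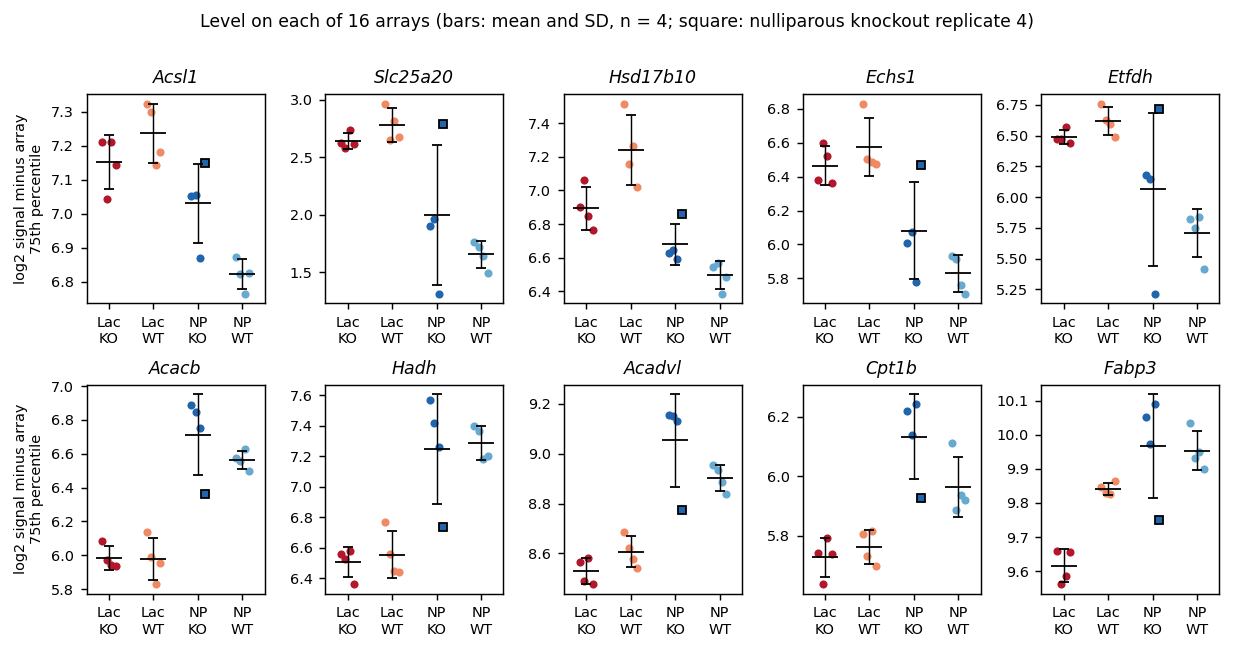
Level on each array (log2 signal relative to the array's 75th percentile) for 10 of the genes, with lactating knockout, lactating wild-type, nulliparous knockout and nulliparous wild-type arrays from left to right; bars are the mean and SD of 4 arrays, and the square marks nulliparous knockout replicate 4. For Slc25a20 the square lies above every lactating knockout array, and for Acacb no lactating array reaches a nulliparous one of its genotype.

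The 4 acyl-CoA dehydrogenases, which open each turn of the spiral, differed among themselves: Acadvl fell in both genotypes and Acads rose in wild-type hearts. Acadvl, the very long-chain enzyme of the inner membrane, measured 8.57, 8.49, 8.58 and 8.48 on lactating knockout arrays, against 9.15, 9.15, 9.13 and 8.78 on nulliparous knockout arrays. Its wild-type values were 8.69, 8.62, 8.58 and 8.54 on lactating wild-type arrays, against 8.96, 8.93, 8.89 and 8.84 on nulliparous wild-type arrays. The groups did not overlap in either genotype, and Acadvl fell by 0.53 ± 0.09 (adjusted p = 0.000739) in knockout and by 0.30 ± 0.09 (adjusted p = 0.0104) in wild-type hearts. The wild-type call ended under median centring (adjusted p = 0.311) and normexp background correction (adjusted p = 0.0553).

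Acads, the short-chain enzyme, measured 3.30, 3.12, 3.00 and 3.43 on lactating knockout arrays, against 2.66, 2.83, 2.43 and 3.43 on nulliparous knockout arrays. In wild-type hearts it measured 3.46, 3.10, 3.28 and 3.07 on lactating wild-type arrays, against 2.49, 2.55, 2.51 and 2.40 on nulliparous wild-type arrays. In knockout hearts nulliparous replicate 4 was level with the highest lactating array, and the wild-type groups were apart. Acads gave 0.37 ± 0.17, adjusted p = 0.0899, in knockout hearts and rose by 0.74 ± 0.17 (adjusted p = 0.00281) in wild-type hearts. Without nulliparous knockout replicate 4 the knockout difference was 0.57 (adjusted p = 0.00178). Acadl and Acadm, the long-chain and medium-chain enzymes, were not called, at 0.27 ± 0.20 and -0.19 ± 0.11 in knockout and 0.44 ± 0.20 and -0.04 ± 0.11 in wild-type hearts. The wild-type difference of Acadl passed the test when nulliparous knockout replicate 3 was left out of the shared fit (adjusted p = 0.00498).

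Of the 7 genes for the later steps, 1 rose and 2 fell in knockout hearts, and 3 rose and 1 fell in wild-type hearts. Hsd17b10, a mitochondrial dehydrogenase of short-chain hydroxyacyl-CoA that also serves isoleucine breakdown and transfer RNA processing, measured 6.90, 7.06, 6.85 and 6.76 on lactating knockout arrays, against 6.63, 6.65, 6.59 and 6.86 on nulliparous knockout arrays. In wild-type hearts it measured 7.52, 7.16, 7.26 and 7.02 on lactating wild-type arrays, against 6.55, 6.57, 6.39 and 6.48 on nulliparous wild-type arrays. The knockout groups overlapped through nulliparous replicate 4, and the difference was 0.21 ± 0.11, adjusted p = 0.114; without that array it was 0.27 (adjusted p = 0.0441). In wild-type hearts Hsd17b10 rose by 0.74 ± 0.11 (adjusted p = 0.000152) without overlap.

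Echs1, the short-chain enoyl-CoA hydratase of the matrix, measured 6.38, 6.60, 6.52 and 6.36 on lactating knockout arrays, against 6.01, 6.07, 5.78 and 6.47 on nulliparous knockout arrays. The wild-type values were 6.83, 6.50, 6.49 and 6.47 on lactating wild-type arrays, against 5.93, 5.92, 5.76 and 5.71 on nulliparous wild-type arrays. It rose by 0.38 ± 0.13 (adjusted p = 0.0283) in knockout hearts, where nulliparous replicate 4 stood within the lactating range, and by 0.75 ± 0.13 (adjusted p = 0.00047) in wild-type hearts with no overlap. The knockout calls of Echs1 and Slc25a20 ended when lactating knockout replicate 3 or any of nulliparous knockout replicates 1 to 3 was left out. The smallest values were without nulliparous knockout replicate 3, at 0.28 (adjusted p = 0.0922) for Echs1 and 0.42 (adjusted p = 0.0699) for Slc25a20. Echs1 also lost the call without lactating knockout replicate 2 (0.34, adjusted p = 0.077).

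Hadh, the hydroxyacyl-CoA dehydrogenase for medium and short chains, went the other way. It measured 6.56, 6.52, 6.58 and 6.36 on lactating knockout arrays, against 7.57, 7.42, 7.26 and 6.74 on nulliparous knockout arrays. Its wild-type values were 6.77, 6.56, 6.45 and 6.44 on lactating wild-type arrays, against 7.40, 7.37, 7.18 and 7.20 on nulliparous wild-type arrays. No lactating array reached a nulliparous array of its genotype, and Hadh fell by 0.74 ± 0.15 (adjusted p = 0.00163) in knockout and by 0.73 ± 0.15 (adjusted p = 0.00102) in wild-type hearts. These falls, like those of Acacb, held in every alternative except slide 2 alone. Hadhb, the thiolase subunit of the trifunctional protein, gave 0.00 ± 0.12 in knockout hearts and was borderline in wild-type hearts (0.31 ± 0.12, adjusted p = 0.0499), where its call held in 3 of the 16 fits that left out 1 array, with adjusted p up to 0.128. The Hadha subunit gave 0.02 ± 0.19 in knockout and 0.35 ± 0.19 in wild-type hearts and was not called. The thiolase Acaa2 fell by 0.45 ± 0.10 in knockout hearts (adjusted p = 0.00338), against -0.10 ± 0.10 in wild-type hearts (adjusted p = 0.414), and median centring ended the knockout call at adjusted p = 0.0951. Ehhadh, the peroxisomal bifunctional enzyme, gave 0.10 ± 0.15 and 0.31 ± 0.15 in knockout and wild-type hearts and was not called.

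Double bonds are handled by isomerases and a reductase. Decr1 fell in both genotypes, and Eci2 rose in wild-type hearts. Decr1, the mitochondrial dienoyl-CoA reductase, measured 7.63, 7.37, 7.52 and 7.50 on lactating knockout arrays, against 8.23, 8.25, 8.07 and 7.89 on nulliparous knockout arrays. Its wild-type values were 7.65, 7.55, 7.47 and 7.43 on lactating wild-type arrays, against 8.11, 7.96, 7.87 and 7.89 on nulliparous wild-type arrays. Lactating and nulliparous arrays did not overlap in either genotype. Decr1 fell by 0.61 ± 0.10 (adjusted p = 0.000645) in knockout and by 0.43 ± 0.10 (adjusted p = 0.00195) in wild-type hearts on its brighter probe. Median centring ended the wild-type call (-0.25, adjusted p = 0.0675). Eci2, an enoyl-CoA isomerase, measured 6.08, 6.03, 6.20 and 6.05 on lactating knockout arrays, against 5.96, 6.04, 5.40 and 6.15 on nulliparous knockout arrays, and these overlapped. Its wild-type values were 6.32, 6.07, 6.13 and 6.05 on lactating wild-type arrays, against 5.63, 5.69, 5.75 and 5.42 on nulliparous wild-type arrays and did not. It gave 0.20 ± 0.14, adjusted p = 0.241, in knockout hearts and rose by 0.52 ± 0.14 (adjusted p = 0.00594) in wild-type hearts. The other isomerase gene, Eci1, gave -0.22 ± 0.11 in knockout and 0.10 ± 0.11 in wild-type hearts and was not called.

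Of the thioesterases, which split acyl-CoA back to free fatty acid and CoA, Acot13 rose in wild-type hearts. It measured 8.47, 8.62, 8.32 and 8.44 on lactating knockout arrays, against 8.54, 8.54, 8.36 and 8.37 on nulliparous knockout arrays. In wild-type hearts the values were 8.77, 8.60, 8.48 and 8.48 on lactating wild-type arrays, against 8.29, 8.38, 8.06 and 8.12 on nulliparous wild-type arrays. The knockout groups overlapped (0.01 ± 0.10, adjusted p = 0.918), and the wild-type groups did not (0.37 ± 0.10, adjusted p = 0.00635). Acot2, the mitochondrial matrix thioesterase, gave -0.04 ± 0.19 in knockout and 0.22 ± 0.19 in wild-type hearts and was not called.

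In electron transfer Etfdh rose in wild-type hearts, Etfb fell in both genotypes and Etfa was not called. Etfdh, the ubiquinone oxidoreductase that accepts electrons from the flavoprotein, measured 6.47, 6.47, 6.57 and 6.44 on lactating knockout arrays, against 6.18, 6.15, 5.22 and 6.71 on nulliparous knockout arrays. In wild-type hearts it measured 6.76, 6.63, 6.59 and 6.49 on lactating wild-type arrays, against 5.83, 5.75, 5.84 and 5.42 on nulliparous wild-type arrays. Nulliparous knockout replicate 4 exceeded every lactating knockout array, and the wild-type groups did not overlap. Etfdh gave 0.43 ± 0.22, adjusted p = 0.129, in knockout hearts (0.64, adjusted p = 0.0116, without that array) and rose by 0.91 ± 0.22 (adjusted p = 0.0037) in wild-type hearts. Etfb, the beta subunit of the flavoprotein, measured 9.04, 8.91, 8.89 and 8.80 on lactating knockout arrays, against 9.69, 9.58, 9.59 and 9.03 on nulliparous knockout arrays. Its wild-type values were 9.14, 8.97, 8.99 and 9.03 on lactating wild-type arrays, against 9.68, 9.48, 9.32 and 9.45 on nulliparous wild-type arrays. In knockout hearts nulliparous replicate 4 lay just under the highest lactating array, and the wild-type groups were apart. Etfb fell by 0.56 ± 0.13 (adjusted p = 0.0034) in knockout and by 0.45 ± 0.13 (adjusted p = 0.00877) in wild-type hearts on its brightest probe. Its dimmest probe had the opposite sign, as described with the other probe pairs. Quantile normalization ended the knockout call (adjusted p = 0.0587) and median centring the wild-type call (adjusted p = 0.0933). Etfa, the alpha subunit, gave -0.12 ± 0.08 in knockout and 0.16 ± 0.08 in wild-type hearts on its brighter probe.

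Nulliparous knockout replicate 4 enters every knockout lactation difference. Set against the other 3 nulliparous knockout arrays it was above all of them for 13 genes, below all of them for 11 and within their range for 7. Its difference from their mean ran from -0.68 for Hadh to 1.07 for Slc25a20. It had the sign of the wild-type lactation difference for 27 of 31 genes, and for 16 of the 17 called in wild-type hearts. These counts have no share over all genes beside them and are not shown to be particular to the members. The array also stood apart on the first principal component of the genes tested (53.6% of the variance). Its part in the knockout values was not tested beyond the counts without it given above.

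Within each slide the lactation difference was computed from 2 arrays a group. It had the same sign on both slides for 27 of 31 members in knockout and 29 of 31 in wild-type hearts. No share over all genes stands beside these sign counts, so they are not read as particular to the members. The members' median was -0.23 on slide 1 and -0.01 on slide 2 in knockout hearts, and 0.22 and 0.06 in wild-type hearts. Within slide 1, 17 members were called in knockout hearts, where 43.9% of all genes were, and 16 in wild-type hearts, where 39.5% were. Within slide 2 limma called no member in either genotype. In knockout hearts it called 0 of all genes there, with 1076 higher and 982 lower at an unadjusted p under 0.05, and in wild-type hearts it called 86.

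Markers of the heart muscle cell were checked alongside. The 8 cardiomyocyte markers were above background on these arrays, and their summed signal relative to the 75th percentile was 5032 to 5679 in lactating knockout, 5744 to 6180 in lactating wild-type, 6069 to 7828 in nulliparous knockout and 5995 to 7296 in nulliparous wild-type hearts. Of these 8 markers, 2 rose and 5 fell in knockout hearts, where 25.5% of all genes rose and 18.6% fell. In wild-type hearts 2 rose and 2 fell, where 31.8% of all genes rose and 18.5% fell. The 5 macrophage markers summed to 36.9 to 44.5 in lactating knockout, 33.9 to 39.8 in lactating wild-type, 16.7 to 31.2 in nulliparous knockout and 18.5 to 22.0 in nulliparous wild-type hearts. Their part in the members' differences was not tested.

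More than 1 probe was present for 10 members, and for 6 of them the probes differed in sign in at least 1 genotype: Lpl, Cpt1a, Cpt2, Decr1, Etfa and Etfb. For Cpt2 the dimmer probe was 2.04 higher in lactating knockout and 2.76 higher in lactating wild-type hearts, while the brighter probe fell. Averaging the probes turned Cpt2 to 0.81 in knockout (adjusted p = 0.0149) and 1.25 in wild-type hearts (adjusted p = 0.000824). The dimmer Decr1 probe gave 0.34 in knockout and 0.48 in wild-type hearts, against falls on the brighter one, and the average was -0.13 in knockout (adjusted p = 0.317) and 0.02 in wild-type hearts (adjusted p = 0.861). The dimmer Etfa probe gave 1.24 in knockout and 1.82 in wild-type hearts, against -0.12 and 0.16 on the brighter. Etfb had 3 probes, at -0.56, -0.26 and 0.19 in knockout and -0.45, -0.18 and 0.36 in wild-type hearts, from the brightest to the dimmest. With the probes averaged, the Etfb call ended in knockout (-0.21, adjusted p = 0.0832) and wild-type hearts (-0.09, adjusted p = 0.442). The second Cpt1a probe gave -0.69 in knockout and -0.54 in wild-type hearts, against -0.14 and 0.10 on the brighter, and the average was called in knockout hearts (-0.41, adjusted p = 0.0199). The second Lpl probe gave -0.03 in knockout and -0.13 in wild-type hearts, against -0.03 and 0.23. Both Acacb probes were lower in lactating hearts, the dimmer one at -1.17 in knockout and -1.32 in wild-type hearts. Which transcripts each probe reads was not tested, so the values given for these 6 genes hold for the brightest probe alone.

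**Figure D3:**
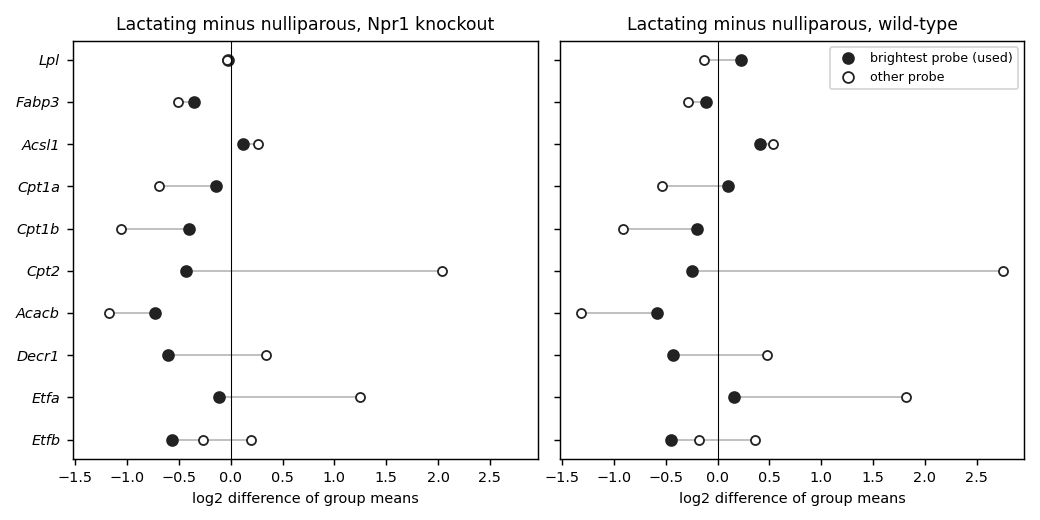
Lactating minus nulliparous log2 difference of every probe of the 10 genes with more than 1 probe, in knockout and wild-type hearts; filled points are the brightest probe of each gene and open points the others. The open Cpt2 points lie at 2.04 and 2.76 while the filled ones lie at -0.43 and -0.25.

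Whether loss of the receptor changed these genes was asked in nulliparous and in lactating hearts. No member was called in either. Over all genes tested 0.0996% were called in nulliparous hearts, 0.0711% higher and 0.0284% lower in knockout mice. In lactating hearts 0.199% were called, 0.064% higher and 0.135% lower. In nulliparous hearts the knockout values were higher for 26 of 31 members, with a median of 0.16 against 0.05 over all genes. Adjusted p ran from 0.49 to 0.998, and 5 members had an unadjusted p under 0.05: Acsl1, Mlycd, Acaa2, Eci1 and Acot13. Over all genes 62.7% were higher and 8.63% had an unadjusted p under 0.05. The count of 5 turned to 14 without nulliparous knockout replicate 3 and 8 without replicate 4. It was 1 without replicate 2 of that group, and 2 without its replicate 1 or without nulliparous wild-type replicate 2, 3 or 4. The share of all genes was 15% without nulliparous knockout replicate 3, 9.56% without its replicate 4 and 9.58% without its replicate 1. In the fit to all 16 arrays Acsl1 differed by 0.21 ± 0.08 in nulliparous hearts, with a 95% interval of 0.05 to 0.37. Weighting the arrays called Acacb (0.28, adjusted p = 0.0418) and Mlycd (0.51, adjusted p = 0.0153), both higher in knockout hearts, a setting under which 1.49% of all genes were called higher and 0.882% lower.

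In lactating hearts the knockout values were lower for 28 of 31 members, with a median of -0.08 against 0 over all genes. Adjusted p ran from 0.27 to 0.996, and 4 members had an unadjusted p under 0.05: Lpl, Fabp3, Hsd17b10 and, at the edge, Etfa. Over all genes 50.1% were lower and 9.14% had an unadjusted p under 0.05. Without lactating wild-type replicate 1, 18 of 31 members were lower, against 6553 of the 14063 genes tested. Every lactating knockout array lay below every lactating wild-type array for 4 of 31 members, Lpl, Fabp3, Hadhb and Etfa, against 4.54% of all genes tested. Lpl differed by -0.35 ± 0.13, adjusted p = 0.376, with a 95% interval of -0.63 to -0.08. Fabp3 differed by -0.23 ± 0.08, adjusted p = 0.331, and Hsd17b10 by -0.35 ± 0.11, adjusted p = 0.27. None passed the test, and these p-values do not show that the genotypes are alike.

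The difference between the lactation changes of the 2 genotypes was tested as an interaction, knockout minus wild-type. It was negative for 31 of 31 members, with a median of -0.25. Over all genes 61.1% were negative, with a median of -0.06, and in the brightest 10%, where 22 of the members lie, 83.8% were negative, with a median of -0.15. The value was also negative for 8 of 8 general mitochondrial genes (median -0.23) and 8 of 8 cardiomyocyte markers (median -0.22). It was negative for 9 of 10 further acyl-CoA enzyme genes (median -0.29), 12 of 16 peroxisomal genes and 7 of 10 regulators. The shared sign is thus not particular to the members. No member was called by limma, which called 0.0924% of all genes, 0.0213% with a positive and 0.0711% with a negative value. Unadjusted p was under 0.05 for 6 members, Hsd17b10, Acsl1, Acot13, Acaa2, Etfa and Fabp3, and for 6.37% of all genes. That count was 18 without nulliparous knockout replicate 3, 10 without replicate 4 of that group, and 3 without replicate 1 of that group or lactating wild-type replicate 1. The share of all genes was 10.3% without nulliparous knockout replicate 3, 9.5% without its replicate 4 and 6.23% without its replicate 1. The value for Hsd17b10 was -0.53 ± 0.15, adjusted p = 0.483, with a 95% interval of -0.85 to -0.21. Acsl1 was -0.29 ± 0.11, adjusted p = 0.668, and Slc25a20 -0.48 ± 0.30, adjusted p = 0.826. The 31 genes share arrays, and the sign they share is not 31 separate observations. The same arrays enter both lactation comparisons and both genotype comparisons. Quantile normalization left 29 of 31 negative with a median of -0.18, and slide 2 alone left 23 of 31 with a median of -0.12.

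**Figure D4:**
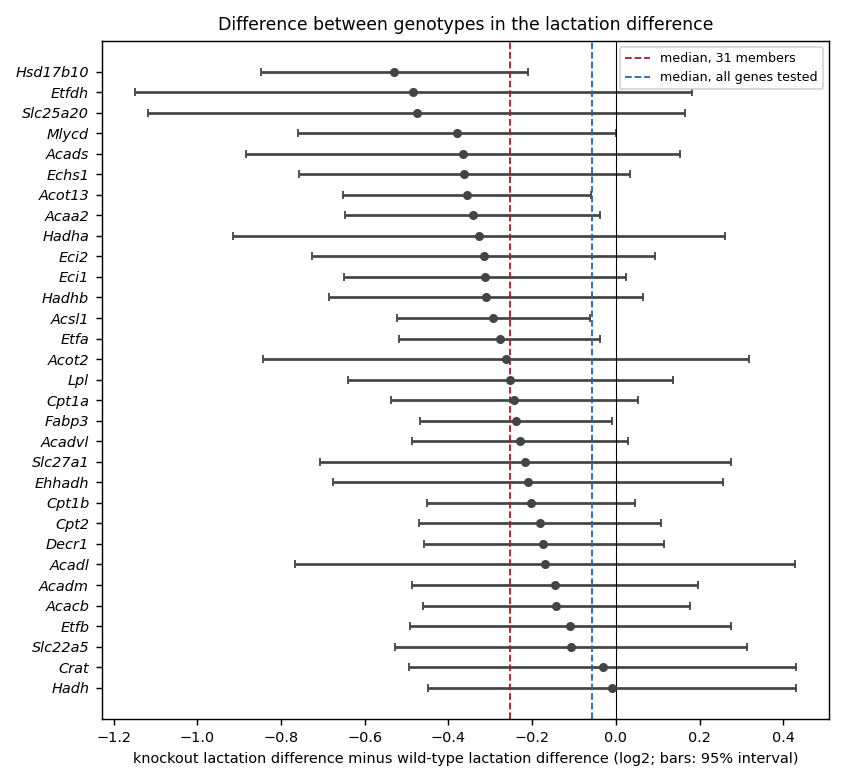
Interaction (lactation change in knockout minus that in wild-type hearts, log2) of the 31 genes, ordered by size, with 95% intervals; dashed lines are the medians of the 31 genes and of all genes tested. All 31 lie below 0, from -0.53 for Hsd17b10 to -0.01 for Hadh, and none was called.

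Other genes of the same pathway were read from lists of related transporters, enzymes and regulators. Over all genes tested, 25.5% rose and 18.6% fell in knockout hearts, and 31.8% rose and 18.5% fell in wild-type hearts. The lists are short, and their counts here and in the following paragraphs are not read as departing from these shares. Of 12 further uptake and activation genes measured, 3 rose and 0 fell in knockout hearts and 5 rose and 0 fell in wild-type hearts, where limma found 2 lower at an unadjusted p under 0.05 in knockout and 0 in wild-type hearts. They include Acsl3 (0.36 and 0.74 in knockout and wild-type hearts), Fabp5 (0.63 and 0.78), and, in wild-type hearts, Dbi (0.60), which binds acyl-CoA, and Gpihbp1 (0.64), which holds lipoprotein lipase at the capillary. Of 6 further carnitine and malonyl-CoA genes, 3 rose and 1 fell in knockout and 2 rose and 1 fell in wild-type hearts. Tmlhe, the first enzyme of carnitine synthesis, rose by 1.57 and 1.71, while Aldh9a1, a later enzyme of that route, fell by 0.58 and 0.33. Crot, the peroxisomal carnitine octanoyltransferase, rose by 0.39 and 0.58, and Acaca, the cytosolic acetyl-CoA carboxylase, by 0.51 in knockout hearts.

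Of 10 further acyl-CoA enzyme genes, most of them mitochondrial, 1 rose and 2 fell in knockout hearts, and 5 rose and 2 fell in wild-type hearts. Acad11, an acyl-CoA dehydrogenase, rose by 0.67 and 1.17 in knockout and wild-type hearts, and Acot7 by 0.54 in wild-type hearts. Acot1, a cytosolic thioesterase, fell by 1.29 and 0.79, and Echdc2 by 0.75 and 0.46. Of 16 peroxisomal genes, 4 rose and 4 fell in knockout and 6 rose and 3 fell in wild-type hearts, among them Phyh (0.38 and 0.57), which rose, and the peroxisome proliferation factor Pex11a (-0.66 and -0.59), which fell. Abcd3, a peroxisomal transporter, fell in knockout hearts (-0.39).

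Of the 5 accessory genes of electron transfer, 1 rose in knockout and 3 rose in wild-type hearts, and 0 fell in either, with 0 at an unadjusted p under 0.05 in that direction. Rfk, riboflavin kinase, rose by 0.45 and 0.42, and Etfrf1 and Etfbkmt, which act on the flavoprotein, rose by 1.21 and 0.52 in wild-type hearts. Of 10 regulators, 2 rose and 2 fell in each genotype, and the same 4 genes were called. Esrrg, a nuclear receptor of oxidative metabolism, rose by 0.81 and 1.00, and Lpin1, a phosphatidate phosphatase and coactivator, by 1.53 and 1.68. The coactivator genes Ppargc1a and Ppargc1b fell, Ppargc1a by 1.17 and 0.60 and Ppargc1b by 0.82 and 1.46. Of 8 general mitochondrial genes, 1 rose and 2 fell in knockout and 4 rose and 0 fell in wild-type hearts, where 0 were lower at an unadjusted p under 0.05. Tfam, a factor for mitochondrial DNA, rose by 1.09 and 1.30, and Ndufs1, Vdac1 and Sdha rose in wild-type hearts by 0.48, 0.38 and 0.32.

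Promoter sequence was read for the genes with an entry in the RefSeq table of build GRCm38.p6, which holds 250 bases before to 50 after each start. Of the 31 genes 25 matched, with 28 promoters. The monomer site of estrogen-related receptors, TCAAGGTCA, was searched exactly on both strands and was in 0 of the 28 promoters and in 0.423% of all 32851. The direct repeat of the hexamer AGGTCA with 1 base between the copies, the pattern read by PPAR and RXR, was searched on both strands with at most 2 mismatches and was found in the promoters of 3 of the 25 genes (12.0%), against 4.40% of all 27025 genes with a promoter. These were Echs1 and Etfa, upstream of the start, and Slc25a20, just after it. The stretches are shown because they hold these matches, in capitals, each written along the gene's strand. For Etfa the match is on the other strand. The Echs1 stretch is chr7:140116472-140116524 (minus strand), the Etfa stretch chr9:55512288-55512340 (minus strand) and the Slc25a20 match chr9:108662142-108662154 (plus strand).
Echs1: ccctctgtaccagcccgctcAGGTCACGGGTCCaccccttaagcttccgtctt
Etfa: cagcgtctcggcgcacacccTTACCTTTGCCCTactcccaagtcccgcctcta
Slc25a20: AGGTGAAAGGTCG
The matches begin at position -83 from the start for Echs1 and -77 for Etfa. A match is a description of the letters in these windows and says nothing of binding.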

How the data were processed

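Gene expression was measured in ventricular total RNA of 16 mice, 200 ng each, labelled with Cy3 per the labels' protocols. Spot values come from Agilent Feature Extraction, version 10.7.3.1, as the file headers and the submitters' processing notes state. The deposited scanner values are intensity values on a linear scale, background-subtracted within the array per the file headers, with no scaling between arrays. A second deposited table gives the authors' own log2 values. Set against the scanner values (r = 0.949 to 0.988 per array), it holds log2 signal scaled to each array's 75th percentile, from which the nulliparous wild-type mean was then taken off, with column medians of -0.382 to 0.0318. Scale, centring and direction were found by that comparison, and the table served as an alternative. Signal over background and the number of arrays limit the precision.

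Control spots and spots marked as outliers were left out, and spots of a probe were averaged. Symbols came from matching RefSeq accessions to the GRCm38.p6 gene table and were found for 28026 of 55681 probes; the array headers name another build, so only promoter coordinates, from the RefSeq table itself, are printed. Values are log2 of the processed signal minus its 75th percentile on that array, taken over probes that are no controls. A gene was tested if its brightest probe was well above background in at least 1 group on each of its 4 arrays, which kept 14063 of 21154 genes. The 4 group means were fitted with limma 3.58.1 in R 4.3.3 (12 residual degrees of freedom), for 5 comparisons, with Benjamini-Hochberg adjustment over all genes tested. The fit was tested on simulated data. Figures were drawn with matplotlib 3.10.9.

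The members and lists were chosen with earlier results of these data known. Genes were described per array for at most 3 per step with the smallest adjusted p, plus Cpt1a and Cpt1b, and other genes of the pathway were named for up to 4 called per list, except 1 gene that is not reported here. Promoter motifs were counted in a fixed window. Replicate numbers were not used to pair the samples in the main fit. Over 24 pairs with the same number, deviations from the group means correlated at -0.139 to 0.177 (median 0.03). Over 72 pairs with different numbers they correlated at -0.283 to 0.246 (median -0.01). Replicates 1 and 2 lay on slide 1 and replicates 3 and 4 on slide 2, so the number also stands for a place on the slides. The alternatives were normexp background correction (offset 50, on the median spot signal), quantile normalization, median centring, no filter on dim probes or one that asks for all 16 arrays, averaging each gene's probes, only the groups compared, a trended and robust variance, array weights, the replicate number or slide as a block, each slide alone, the deposited table, and leaving out each array.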

Additional observations from a re-analysis of the deposited data

Results flagged for a closer look

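In 5 of the 124 combinations of a member and a group, 1 of the 4 arrays stood apart from the other 3 by Dixon's criterion at the 95% level. Chance alone gives about 1 in 20. Acadvl measured 8.776 on nulliparous knockout replicate 4, where the nearest of the other nulliparous knockout arrays measured 9.132. Etfb measured 9.027 on the same array, against 9.582 on the nearest. Both are genes that fell in lactation, and that array is the one described above as lying between the lactating and the other nulliparous arrays. Acadl measured 5.661 on lactating knockout replicate 4, with the nearest at 5.816. Echs1 measured 6.831 on lactating wild-type replicate 1, with the nearest at 6.504. Lpl measured 8.921 on nulliparous wild-type replicate 4, with the nearest at 9.111. What set these arrays apart was not tested.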

How the results depend on the processing

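All 4 counts of called members in the lactation comparisons moved with the processing. Rising members in knockout hearts, 2 as reported, numbered 5 with normexp background correction, 4 with quantile normalization, 6 with median centring, 1 with no filter, 4 with the mean of a gene's probes, 0 with only the groups compared, 6 with array weights, 4 within slide 1 and 0 within slide 2. In wild-type hearts 14 rose with median centring and 0 within slide 2, against 9. Falling members in knockout hearts numbered 7 with median centring and 0 within slide 2, against 12. In wild-type hearts they numbered 2 with median centring, 5 within slide 1 and 0 within slide 2, against 8. Each slide alone holds 2 arrays a group. Leaving out 1 array gave 0 to 6 rising and 12 to 13 falling members in knockout hearts, and 8 to 11 rising and 6 to 9 falling in wild-type hearts. Array weights called 2 members higher in nulliparous knockout hearts, against 0. With the replicate number as a block, 2 members rose and 12 fell in knockout hearts, and 9 rose and 9 fell in wild-type hearts, the added fall being Cpt1b. Across the members, settings and comparisons, 4463 values kept their side of the threshold, 94 lost a call, 58 gained one and 4 called values turned sign. Values that were called neither way may have turned sign and still count among the 4463. The 4 were Fabp3 in knockout hearts with quantile normalization (0.113), and, with the mean of the probes, Cpt2 in knockout (0.807) and wild-type hearts (1.254) and Decr1 in wild-type hearts (0.024). For the probe means the opposing second probe enters the value, and for the others the cause was not tested. Median centring raised the share of higher calls among all called genes to 79.2% in knockout and 80.3% in wild-type hearts, where 75th percentile scaling gave 57.9% and 63.2%. With only the groups compared, no interaction could be fitted. Calls near adjusted p of 0.05 are limited by 4 mice a group.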
